A study of Mus musculus with 24 samples.

Results

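The culture change of fetal intestinal organoids was set against that of adult intestinal organoids, gene by gene, in mouse. The contrast was (day 30 minus day 3 of culture in organoids from E19 fetal intestine) minus (day 30 minus day 3 in organoids from adult intestine). It used 16 of the 24 arrays of the series, 4 in each of 4 groups: E19 organoids at day 30, E19 organoids at day 3, adult organoids at day 30 and adult organoids at day 3. The other 8 arrays held RNA of adult and P0 (newborn) intestine, 4 each, and serve here as a readout outside the contrast. All 24 arrays were fitted in a single model, so the tissue arrays also entered the estimate of spread behind each p-value. All organoids grew in ENR, a standard organoid medium with EGF, Noggin and R-spondin. The labels give no strain, sex, intestinal segment or age in weeks, and do not say whether replicates were separate animals, cultures or passages, so the p-values measure only the spread between these arrays, which may be technical. A positive difference means that a gene's level went up more, or down less, over the culture of fetal organoids than over that of adult organoids.

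Organoids are epithelial cultures that grow from stem cells of the intestinal epithelium. Before weaning, the epithelium of the rodent intestine takes up whole milk proteins into large lysosomes and digests lactose. At weaning it switches to an adult programme, with sucrase-isomaltase and trehalase at the brush border, arginase 2, detoxifying enzymes and Paneth cells in the crypts, and it lowers the receptor for milk antibodies. Cultured fetal epithelium is also known for regenerative and oncofetal genes, of which adult epithelium shows little outside injury.

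The RNA was read on one-colour Affymetrix arrays and the deposited values are log2 signals, so a difference of 1 is a 2-fold change. Array medians of the 16 organoid arrays lay between 4.20 and 4.40, and the medians of negative control probe sets between 3.84 and 4.38. A group mean below its own negative controls is read as no measured level, so the size of a change into or out of such a group is not resolved, and a change between 2 such groups has no resolved sign or size. Of the named genes this held for at least 1 organoid group in 21 of 109. Among them were Tfec, Gkn2, Hao2, Slc6a14, Clec7a, Mcoln3, Lrp2, Nrg1, Ndn, Ifit1 and Rsad2, in every group but fetal day 3. The epithelial markers (8 of 8 measured, such as Epcam and Cdh1) averaged between 10.002 and 10.44 on every organoid array. Some arrays stood apart. In the fit with array weights, fetal day 3 replicate 1 had the lowest weight of all 24 arrays, 0.252. Replicates 2 and 3 of that group had weights of 1.07 and 1.24. Replicate 1 also had the highest array median (4.40) and the highest background probe mean (4.04) of the 16 organoid arrays. Fetal day 3 replicates 2 and 3 averaged 7.83 and 7.74 over 17 stomach genes, against 6.49 and 5.41 on the other fetal day 3 arrays, and 7.46 and 7.46 over 11 pancreatic acinar genes, against 6.19 and 5.10. Adult day 3 replicate 1 averaged 6.15 over 14 mesenchymal genes, against 5.10 to 5.14 on the other adult day 3 arrays. Fetal organoid arrays also carried Y-linked Uty at 4.31 to 5.25, against 3.54 to 3.69 on adult organoid arrays, while Xist, which is made from the inactive X, was at 9.81 or more on all 16. Y-linked signal and origin cannot be told apart between the organoid groups, and the culture changes of Uty did not pass the test (0.49 ± 0.68, adjusted p = 0.845). Xist and Uty were picked with their values in view.

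The culture changes of fetal and adult organoids differed for 918 of 30705 genes (2.99%) at limma's Benjamini-Hochberg adjusted p under 0.05, with 4182 genes at an unadjusted p under 0.05. The difference was higher for 313 genes (1.02%) and lower for 605 (1.97%), so 34.1% of the called genes were higher. With arrays centred on their medians the split was 358 higher and 438 lower (45.0% higher). At least a 2-fold difference was seen for 148 of the higher and 245 of the lower genes, and at least 4-fold for 43 and 51. Without fetal day 3 replicates 2 and 3, 177 were higher and 386 lower, and 455 of the 918 genes were called in both. Leaving out fetal day 3 replicate 1 instead gave 333 higher and 697 lower genes, and kept 808 of the 918. Leaving out replicate 2 alone kept 682, and replicate 3 alone 686. Without adult day 3 replicate 4 alone, 632 were kept. The fit without replicates 2 and 3 dropped 2 arrays, so its 455 is not on the same footing as these counts. In a fit of the organoid arrays alone, 218 were higher and 469 lower.

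The fetal change was the larger of the pair for most called genes. Fetal organoids alone changed in 15.5% of genes between day 30 and day 3, while adult organoids alone changed in 0.0489% (8 higher and 7 lower, with 2582 genes at an unadjusted p under 0.05). The adult count depended on the setting, with 203 higher and 169 lower under array weights, and 114 and 90 without adult day 30 replicate 3. These comparisons share their arrays with the difference and are set beside it only to show its parts. Among the 313 higher genes the median fetal change was 0.86 and the median adult change -0.09, and the fetal change was the larger in size for 282 (90.1%). Among the 605 lower genes the medians were -0.92 and -0.06, and the fetal change was the larger for 599 (99.0%). Over all genes the median difference was -0.02.

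**Figure D1:**
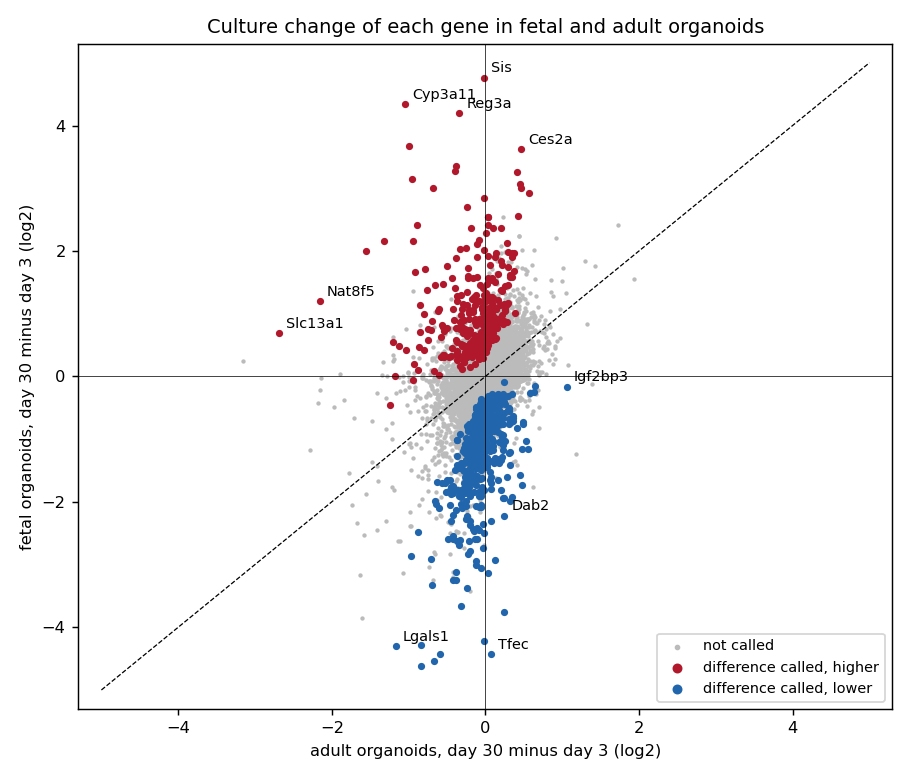
Change in fetal organoids (y axis, day 30 minus day 3, log2) against change in adult organoids (x axis, same unit) for each of 30705 genes, with the 313 genes called higher in red and the 605 called lower in blue, and equal changes on the dashed line. The called genes run along the fetal axis, near an adult change of 0, with Slc13a1, Nat8f5 and Igf2bp3 set off from it.

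Sis, Treh and Arg2, genes of the adult programme, were higher. Sis encodes sucrase-isomaltase, which splits sucrose and starch fragments. Its level was in fetal organoids 11.43, 11.53, 11.24 and 11.62 at day 30, against 7.16, 5.94, 5.58 and 8.09 at day 3, and in adult organoids 10.98, 11.38, 11.36 and 11.46 at day 30, against 11.45, 11.03, 11.48 and 11.31 at day 3. Fetal day 3 arrays were all below the arrays of the other groups, which overlapped. The difference was 4.78 ± 0.47, adjusted p = 1.84e-06, with a fetal change of 4.76 and an adult change of -0.02. It was 3.85 without fetal day 3 replicates 2 and 3. Treh encodes trehalase, the brush border enzyme for the sugar trehalose. It measured in fetal organoids 6.92, 7.93, 6.55 and 6.77 at day 30, against 4.92, 4.51, 4.46 and 4.63 at day 3, and in adult organoids 6.82, 6.99, 7.67 and 6.99 at day 30, against 7.84, 7.56, 8.65 and 7.97 at day 3. Fetal day 3 again lay below every other array, and adult day 30 lay mostly below adult day 3 (3.30 ± 0.42, adjusted p = 6.25e-05). Arg2 encodes mitochondrial arginase 2 and read in fetal organoids 7.48, 7.96, 6.74 and 8.56 at day 30, against 4.79, 4.16, 5.12 and 4.65 at day 3, and in adult organoids 8.45, 8.87, 8.70 and 7.90 at day 30, against 9.10, 8.64, 9.54 and 9.39 at day 3. The lowest arrays were those of fetal day 3 (3.70 ± 0.48, adjusted p = 6.25e-05).

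The upstream sequence of Sis is shown because the gene has the second largest difference and its promoter is a textbook target of the intestinal factor CDX2. The 250 bases before its start site (RefSeq, GRCm38.p6, chr3:72967864-72968113, minus strand, read along the gene) hold 1 match to TTTATTG on either strand, in capitals.
Sis: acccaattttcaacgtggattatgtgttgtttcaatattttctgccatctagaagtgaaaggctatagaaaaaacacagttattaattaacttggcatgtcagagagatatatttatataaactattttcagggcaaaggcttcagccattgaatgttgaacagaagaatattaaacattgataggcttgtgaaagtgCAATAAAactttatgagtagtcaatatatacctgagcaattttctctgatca
The motif was searched in 250 bases upstream, on both strands, and 4.89% of 27025 genes with a RefSeq promoter held it, as did 1 of 18 promoters of the brush border list. A match is a description of the letters and not a site.

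**Figure D2:**
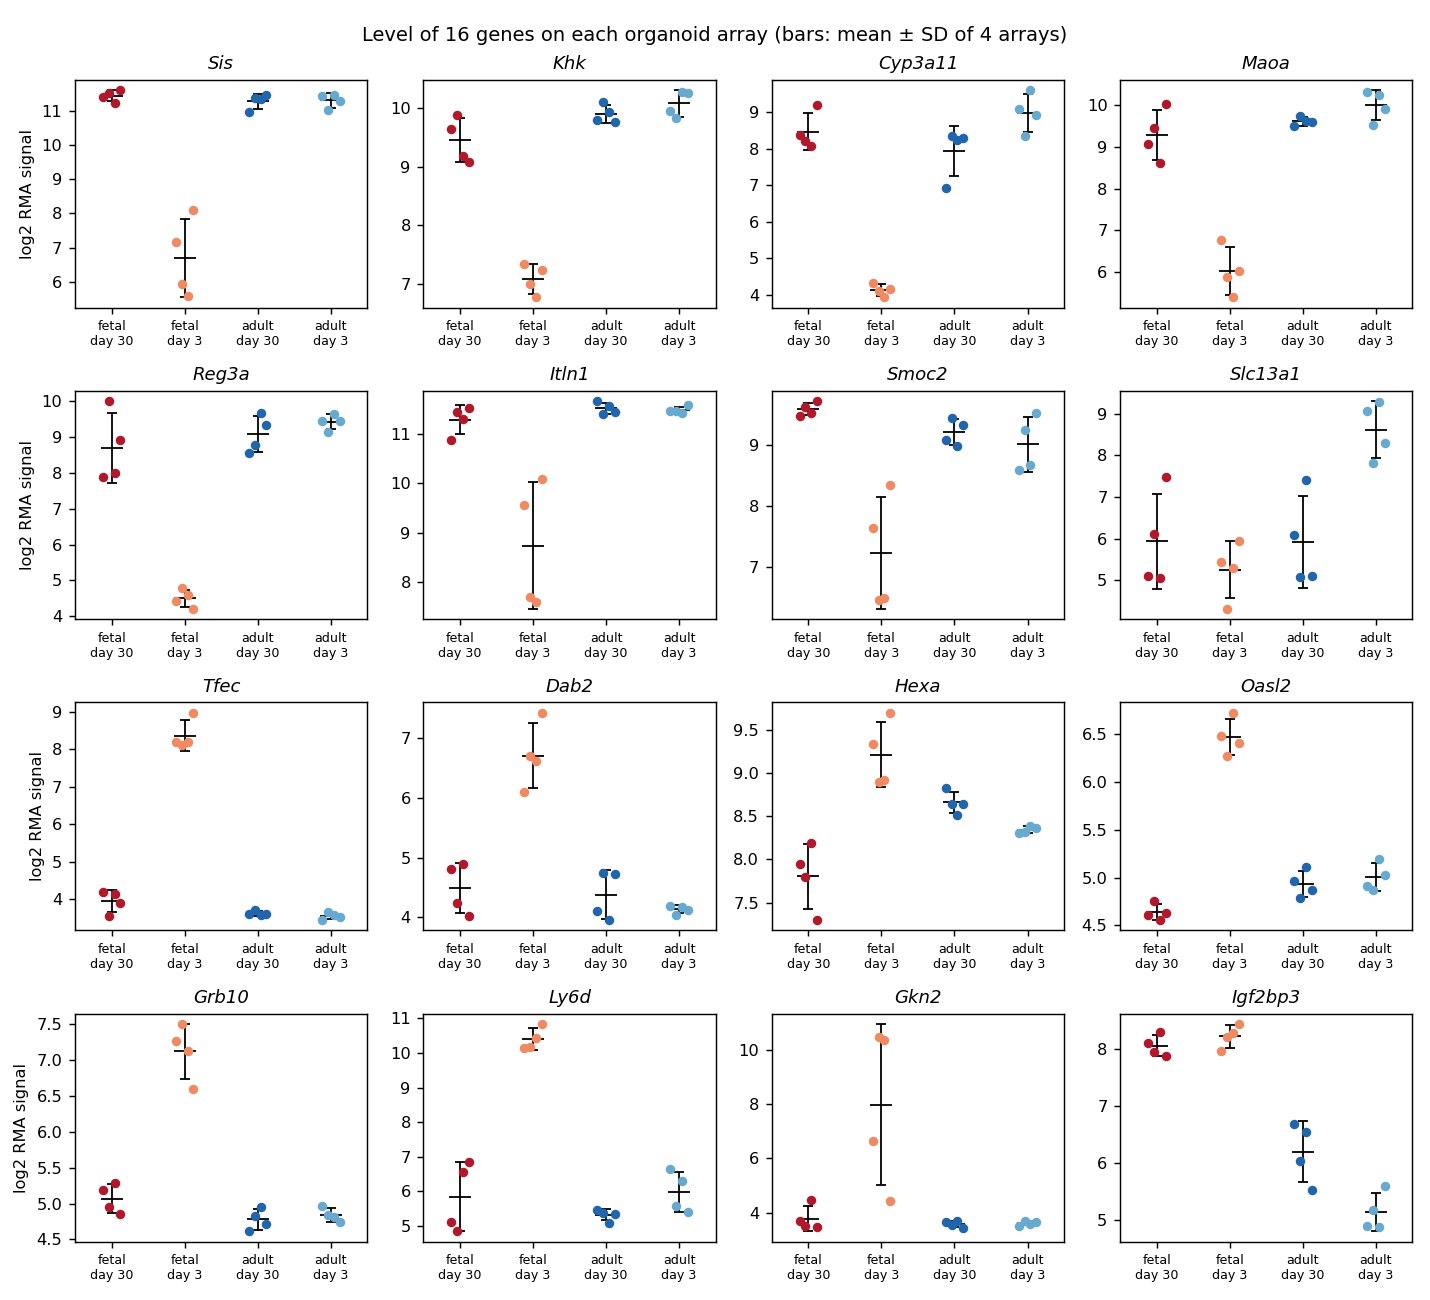
Log2 signal of 16 genes (y axis) on each of the 4 arrays of fetal day 30, fetal day 3, adult day 30 and adult day 3 organoids (x axis), with the mean and SD as black bars. Fetal day 3 arrays stand below the other groups for Sis, Khk, Cyp3a11, Maoa and Reg3a, and above them for Tfec, Dab2, Oasl2, Grb10 and Ly6d, while Slc13a1 is high in adult day 3 organoids and Igf2bp3 is low there.

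Of the brush border digestion list, 3 of 19 measured genes were higher and 0 lower, against 1.02% of all genes called higher, with a median difference of 0.28 against -0.02 over all genes. That list median was -0.11, and 2 of the 19 were called, without fetal day 3 replicates 2 and 3. The called genes were Sis, Treh and Mme, which encodes a peptidase (difference 1.99, adjusted p = 0.0156). Mme gave 1.38 (adjusted p = 0.142) there and was lost. Lct, which encodes lactase, the milk sugar enzyme, gave 0.34 (adjusted p = 0.875), and each of its groups overlapped another. Of 9 arginine, urea and proline enzymes, Arg2 and Otc, a urea cycle enzyme made in enterocytes (1.21 ± 0.29, adjusted p = 0.0182), were higher. Otc was not called without the same arrays (0.89, adjusted p = 0.155).

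Sugar transport and fructose metabolism held 5 higher and 0 lower genes of 10, against 1.02% of all genes called higher. The median difference was 1.73. Without fetal day 3 replicates 2 and 3, 4 were higher, with a median of 1.05. Khk encodes ketohexokinase, which starts fructose breakdown. It read in fetal organoids 9.65, 9.88, 9.18 and 9.08 at day 30, against 7.34, 7.003, 6.77 and 7.23 at day 3, and in adult organoids 9.79, 10.09, 9.93 and 9.77 at day 30, against 9.95, 9.82, 10.28 and 10.26 at day 3. Every fetal day 3 array was below all others (2.54 ± 0.24, adjusted p = 8.99e-07). Slc5a1, the sodium-coupled glucose transporter, read in fetal organoids 10.04, 10.25, 9.94 and 9.96 at day 30, against 8.23, 7.72, 7.71 and 9.59 at day 3, and in adult organoids 9.44, 9.73, 9.97 and 9.56 at day 30, against 9.93, 9.72, 9.99 and 9.98 at day 3. Fetal day 3 replicate 4 reached the level of the adult arrays and the other fetal day 3 arrays did not (1.96 ± 0.38, adjusted p = 0.00365). Slc2a5, the fructose transporter, gave 2.03 ± 0.37, adjusted p = 0.00218. Tkfc, the fructose pathway kinase for glyceraldehyde, gave 1.28 ± 0.19, adjusted p = 0.000302. Fbp1, an enzyme of glucose production, gave 2.01 ± 0.42, adjusted p = 0.00638 and was the one lost without those arrays (1.60, adjusted p = 0.0668).

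Detoxifying enzymes held the largest positive difference. Cyp3a11 encodes a cytochrome P450 that breaks down drugs and steroids. It read in fetal organoids 8.38, 8.22, 8.07 and 9.22 at day 30, against 4.33, 4.10, 3.93 and 4.15 at day 3, and in adult organoids 6.93, 8.35, 8.23 and 8.29 at day 30, against 9.09, 8.34, 9.61 and 8.92 at day 3. Fetal day 3 lay far below every other array, and adult day 30 replicate 1 lay below the other adult arrays. The difference was 5.39 ± 0.46, adjusted p = 3e-07, with a fetal change of 4.34 and an adult change of -1.04. Ces2a, a carboxylesterase, read in fetal organoids 11.82, 12.13, 11.27 and 11.97 at day 30, against 8.45, 7.78, 7.67 and 8.81 at day 3, and in adult organoids 11.80, 12.39, 11.38 and 11.78 at day 30, against 11.35, 10.74, 11.85 and 11.57 at day 3. Here the adult change was positive too (0.46), and the difference was 3.16 ± 0.37, adjusted p = 1.8e-05. Of 21 drug metabolism genes, 9 were higher and 0 lower, against 1.02% of all genes called higher, with a median of 0.72. Among the 9 were Cyp3a25 (4.67), Cyp4f14 (3.74), Cyp2b10 (3.11) and Ces1f (2.95). Without fetal day 3 replicates 2 and 3, 9 were higher as well. Maoa, which encodes monoamine oxidase A, was outside the list and read in fetal organoids 9.07, 9.45, 8.61 and 10.02 at day 30, against 6.78, 5.88, 5.40 and 6.03 at day 3, and in adult organoids 9.49, 9.73, 9.62 and 9.60 at day 30, against 10.32, 9.53, 10.25 and 9.90 at day 3, with fetal day 3 below all other arrays (3.66 ± 0.36, adjusted p = 1.98e-06). Cyp3a11, Cyp3a25 and Cyp3a59, and likewise the Ces1 and Ces2 genes, have near-identical copies, so signal may be shared between members of a family.

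Genes of crypt cells were higher in part. Of 19 stem cell and Wnt target genes, 8 were higher and 0 lower (median 0.47), against 1.02% of all genes called higher. Smoc2, a secreted protein of crypt stem cells, read in fetal organoids 9.49, 9.63, 9.53 and 9.72 at day 30, against 7.63, 6.45, 6.49 and 8.34 at day 3, and in adult organoids 9.08, 9.45, 8.99 and 9.33 at day 30, against 8.60, 9.25, 8.67 and 9.54 at day 3. Fetal day 3 replicates 2 and 3 were the lowest arrays and replicate 4 came near the adult arrays (2.16 ± 0.40, adjusted p = 0.00284, and 1.41 without replicates 2 and 3). Lrig1, a receptor that damps EGF receptor signalling in stem cells, gave 1.33 ± 0.17, adjusted p = 7.43e-05, and Olfm4, a stem cell marker, gave 1.70 ± 0.37, adjusted p = 0.00968. Axin2, a direct Wnt target, gave 1.30 ± 0.29, adjusted p = 0.0125. Lgr5, the R-spondin receptor of crypt stem cells, was not called. It read in fetal organoids 7.73, 8.63, 8.02 and 8.23 at day 30, against 6.77, 4.94, 4.95 and 7.10 at day 3, and in adult organoids 8.67, 8.71, 8.47 and 8.91 at day 30, against 6.91, 8.33, 7.23 and 8.63 at day 3, lowest on fetal day 3 replicates 2 and 3. Its difference was 1.30 ± 0.56, adjusted p = 0.281, and 0.30 (adjusted p = 0.815) without those arrays. There 5 of the 19 list genes were higher, and Olfm4 and Axin2 were not called. Mki67, a gene of dividing cells, gave 0.36 (adjusted p = 0.693), and limma called 0 of 19 cell cycle genes, with 1 at an unadjusted p under 0.05, although 18 of the 19 had a positive difference.

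Paneth cells make antimicrobial proteins at the crypt base. Of 12 measured Paneth genes 4 were higher and 0 lower (median 1.08), all 12 with a positive difference, against 1.02% of all genes called higher. Itln1, a lectin, read in fetal organoids 10.88, 11.45, 11.30 and 11.52 at day 30, against 9.57, 7.70, 7.62 and 10.09 at day 3, and in adult organoids 11.65, 11.40, 11.55 and 11.44 at day 30, against 11.46, 11.46, 11.42 and 11.57 at day 3. The 2 lowest fetal day 3 arrays were replicates 2 and 3 (2.51 ± 0.50, adjusted p = 0.00503). Lyz1, the Paneth cell lysozyme, read in fetal organoids 9.60, 10.52, 10.47 and 11.003 at day 30, against 9.69, 8.29, 8.15 and 9.83 at day 3, and in adult organoids 11.07, 10.69, 11.42 and 11.15 at day 30, against 11.74, 11.49, 11.47 and 11.20 at day 3. Fetal day 3 overlapped fetal day 30, and the difference was 1.80 ± 0.46, adjusted p = 0.0296. Lyz1 was lost in 10 of 25 other fits. Without fetal day 3 replicates 2 and 3, the only Paneth gene called was Itln1 (1.43), the list median was 0.39, and Lyz1 gave 1.03 (adjusted p = 0.209). The defensin genes Defa21 and Defa22 (2.62 and 2.54), which have near-identical copies, and whose array values were close to each other, gave 1.32 and 1.21 there and were not called. Mmp7, the protease that activates defensins, gave 0.36 (adjusted p = 0.855).

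Mucosal defence genes were higher for 4 of 20, against 1.02% of all genes called higher. The list median was -0.03 (0.04 both with centred arrays and without fetal day 3 replicates 2 and 3). Reg3a, an antibacterial lectin, read in fetal organoids 7.88, 9.99, 8.01 and 8.91 at day 30, against 4.44, 4.78, 4.58 and 4.21 at day 3, and in adult organoids 8.55, 8.77, 9.66 and 9.33 at day 30, against 9.44, 9.14, 9.64 and 9.45 at day 3. The fetal day 3 arrays were far below all others (4.53 ± 0.45, adjusted p = 1.84e-06). Pigr, the receptor that carries IgA across the epithelium, read in fetal organoids 11.51, 11.26, 11.24 and 11.21 at day 30, against 9.62, 8.62, 8.54 and 10.01 at day 3, and in adult organoids 11.49, 11.51, 11.22 and 11.47 at day 30, against 11.47, 11.43, 11.58 and 11.66 at day 3, with fetal day 3 lowest throughout (2.23 ± 0.30, adjusted p = 0.000117). Ccl28, a chemokine that attracts IgA-producing cells, gave 2.37 ± 0.43, adjusted p = 0.00197, and 1.57 without fetal day 3 replicates 2 and 3. Nlrp6, a sensor of microbial products, gave 1.23 ± 0.28, adjusted p = 0.0124 and was lost without those arrays (1.09, adjusted p = 0.088). In the other secretory lists Klk1 was the only goblet gene called (1.55, 1 of 15) and Tac1 the only enteroendocrine gene (1.17, 1 of 20), and both were lost without those arrays and in 12 and 11 of 25 other fits in all. Chga, the enteroendocrine chromogranin, gave 1.03 (adjusted p = 0.279). Of 11 tuft cell genes limma called 0, and 0 had an unadjusted p under 0.05.

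A few genes owed much of their difference to adult organoids. Slc13a1, a sulfate transporter, read in fetal organoids 5.11, 6.10, 5.05 and 7.49 at day 30, against 5.43, 4.31, 5.29 and 5.95 at day 3, and in adult organoids 6.09, 5.07, 7.41 and 5.11 at day 30, against 9.05, 7.82, 9.29 and 8.29 at day 3. Adult day 3 was above every other array, and the fetal groups overlapped. Its difference was 3.39 ± 0.77, adjusted p = 0.0141, with a fetal change of 0.69 and an adult change of -2.69 (adjusted p = 0.0657 for the adult change). Nat8f5, an acetyltransferase family member, read in fetal organoids 5.37, 6.32, 5.27 and 6.07 at day 30, against 5.20, 4.28, 4.05 and 4.69 at day 3, and in adult organoids 6.55, 5.81, 8.09 and 6.53 at day 30, against 9.18, 8.44, 9.23 and 8.76 at day 3. Its difference of 3.36 held a fetal change of 1.20 and an adult change of -2.16 (adjusted p = 0.104 for the adult change). Both lost their call without fetal day 3 replicates 2 and 3 (adjusted p = 0.092 and 0.0512). Slc5a4b, a sodium-glucose cotransporter relative with a close copy, gave 3.55 ± 0.56, adjusted p = 0.000584. Its adult change was -1.55 (adjusted p = 0.172 for the adult change). In the 313 higher genes the adult change was the larger in size for 31, and in the 605 lower genes for 6.

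Among the lower genes, Tfec had the largest difference. It encodes a member of the MiT/TFE family of transcription factors, some of which switch on lysosomal genes. It read in fetal organoids 4.19, 3.54, 4.14 and 3.88 at day 30, against 8.20, 8.10, 8.19 and 8.98 at day 3, and in adult organoids 3.59, 3.70, 3.56 and 3.60 at day 30, against 3.44, 3.65, 3.58 and 3.52 at day 3. Every fetal day 3 array was above 8, and the other 12 arrays lay at or near the negative controls. The difference was -4.50 ± 0.24, adjusted p = 1.03e-10, and -4.72 without fetal day 3 replicates 2 and 3. The other 3 members of the family list were not called. Of 25 lysosome genes 10 were lower and 0 higher, with a median of -0.53, against 1.97% of all genes called lower. Mcoln3, an endolysosomal calcium channel, read in fetal organoids 3.83, 3.95, 3.99 and 3.92 at day 30, against 6.04, 5.76, 6.002 and 7.75 at day 3, and in adult organoids 3.81, 3.91, 3.86 and 3.94 at day 30, against 4.03, 4.12, 3.94 and 4.03 at day 3. All fetal day 3 arrays were above the others, and replicate 4 was the highest (-2.32 ± 0.46, adjusted p = 0.00452). Hexa, an enzyme that breaks down gangliosides, read in fetal organoids 7.94, 7.80, 8.19 and 7.30 at day 30, against 9.34, 8.90, 8.92 and 9.70 at day 3, and in adult organoids 8.83, 8.65, 8.52 and 8.65 at day 30, against 8.30, 8.32, 8.39 and 8.37 at day 3. Fetal day 30 lay below both adult groups, and fetal day 3 lay above them (-1.72 ± 0.22, adjusted p = 5.11e-05). Lgmn, the protease legumain, gave -1.67 ± 0.29, adjusted p = 0.00127, Neu1, the lysosomal sialidase, gave -1.49 ± 0.22, adjusted p = 0.000295, and Ctsl, the protease cathepsin L, gave -1.40 ± 0.30, adjusted p = 0.00818. The mean of the 25 genes was 7.60 to 7.91 on fetal day 30 arrays, against 8.37 to 8.75 on fetal day 3 arrays, and 7.67 to 7.81 on adult day 30, against 7.76 to 7.90 on adult day 3 arrays. Leaving out fetal day 3 replicates 2 and 3, 11 were lower, but Ctsl was not called (-1.31, adjusted p = 0.0573).

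The upstream sequences of Lgmn and of the interferon genes below are shown because their gene groups were lower together. MiT/TFE factors bind an E-box whose core was searched as TCACGTG on both strands of the 250 bases upstream. It occurred in 8 of 24 lysosome genes with a RefSeq promoter, against 3.58% of all 27025 genes, but in 1 of the 9 that were called, Lgmn (GRCm38.p6, chr12:102439100-102439179, minus strand, capitals mark the match). Khk, which went the other way, also held it.
Lgmn: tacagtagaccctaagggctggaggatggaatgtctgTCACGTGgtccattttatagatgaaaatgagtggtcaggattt

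Genes of protein uptake in the suckling intestine were lower as well. Of 14 genes, 5 were lower and 0 higher, against 1.97% of all genes called lower. All 14 had a negative difference (median -0.92). Dab2 encodes an adaptor for endocytosis of milk proteins. It read in fetal organoids 4.82, 4.25, 4.89 and 4.03 at day 30, against 6.10, 6.71, 6.62 and 7.43 at day 3, and in adult organoids 4.11, 4.73, 3.95 and 4.72 at day 30, against 4.20, 4.04, 4.18 and 4.12 at day 3, with fetal day 3 above every other array (-2.47 ± 0.31, adjusted p = 5.23e-05). Cubn encodes cubilin, a receptor that Dab2 adapts. It read in fetal organoids 5.61, 6.75, 6.17 and 6.75 at day 30, against 7.45, 7.45, 7.43 and 8.26 at day 3, and in adult organoids 3.58, 4.46, 3.52 and 5.07 at day 30, against 4.17, 3.67, 4.12 and 3.86 at day 3. Fetal arrays stayed above adult arrays on both days (-1.53 ± 0.40, adjusted p = 0.0357). Lrp2, the receptor megalin, gave -0.97 ± 0.19, adjusted p = 0.00379. Fcgrt, which takes up milk antibodies, read in fetal organoids 6.60, 7.69, 6.31 and 6.29 at day 30, against 8.11, 8.41, 8.53 and 9.05 at day 3, and in adult organoids 7.18, 6.55, 7.29 and 6.43 at day 30, against 7.50, 6.87, 7.67 and 6.89 at day 3. The fetal day 3 arrays were above all others, while fetal day 30 overlapped the adult groups (-1.43 ± 0.37, adjusted p = 0.0321). It was lost in 13 of 25 other fits, with adjusted p up to 0.113, and Cubn in 10. With centred arrays 2 of 14 were lower. Without fetal day 3 replicates 2 and 3, 3 of 14 were lower, and Fcgrt (-1.49, adjusted p = 0.0881) and Cubn (-1.74, adjusted p = 0.0559) were not. Prdm1, which encodes Blimp-1, a repressor of the adult programme before weaning, gave -1.06 (adjusted p = 0.104), and Nox4 lay below the negative controls in all 4 groups.

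Interferon-induced genes, which cells switch on against viruses, were lower for 10 of 18 and higher for 0, against 1.97% of all genes called lower. The median difference was -1.15, with a median fetal change of -1.39 and a median adult change of -0.06. Oasl2, an antiviral protein of the oligoadenylate synthetase family, read in fetal organoids 4.61, 4.76, 4.56 and 4.63 at day 30, against 6.47, 6.26, 6.72 and 6.41 at day 3, and in adult organoids 4.96, 4.79, 5.11 and 4.87 at day 30, against 4.92, 4.87, 5.20 and 5.03 at day 3. Fetal day 3 was above every other array, and fetal day 30 was below every adult array (-1.75 ± 0.18, adjusted p = 3.9e-06). Bst2, also called tetherin, read in fetal organoids 7.37, 7.48, 7.85 and 6.87 at day 30, against 9.04, 9.55, 9.74 and 9.01 at day 3, and in adult organoids 8.55, 8.11, 8.01 and 8.05 at day 30, against 8.03, 8.13, 7.84 and 7.73 at day 3, with fetal day 3 above every other array and fetal day 30 below adult day 30 (-2.19 ± 0.29, adjusted p = 0.000101). Usp18, which removes the ubiquitin-like protein Isg15, gave -2.10 ± 0.27, adjusted p = 5.23e-05. Ifit1, which binds viral RNA, read in fetal organoids 4.004, 3.94, 3.27 and 4.32 at day 30, against 5.88, 5.81, 7.11 and 6.76 at day 3, and in adult organoids 3.33, 3.41, 5.44 and 3.45 at day 30, against 4.33, 3.37, 4.28 and 3.73 at day 3. Adult day 30 replicate 3 was high beside its group, and the difference was -2.48 ± 0.55, adjusted p = 0.0111. The list mean was 4.70 to 4.79 on fetal day 30 arrays, against 5.83 to 6.17 on fetal day 3 arrays, and 4.93 to 5.19 on adult day 30, against 5.04 to 5.25 on adult day 3 arrays. Adult tissue averaged 6.32 ± 0.10 and P0 tissue 6.28 ± 0.20 (SD, n = 4 each). Leaving out fetal day 3 replicates 2 and 3, 9 were lower. Of 9 MHC class I and 6 class II genes, which present antigen, limma called 0, with 1 and 0 at an unadjusted p under 0.05.

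Interferon acts through a promoter element, searched as GAAA, any 2 bases and GAAA on either strand. Among 15 list genes with a RefSeq promoter, 10 held it within 250 bases upstream, against 3.46% of all 27025 genes. It was present in 6 of the 8 called genes and in 4 of the 7 measured genes that were not called. Stretches of 80 bases (GRCm38.p6) around the matches of the 6 called genes follow, with every match within the stretch in capitals.
Ifit1 (chr19:34640759-34640838, plus strand): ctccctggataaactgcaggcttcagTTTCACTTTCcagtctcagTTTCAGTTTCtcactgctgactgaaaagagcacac
Isg15 (chr4:156200846-156200925, minus strand): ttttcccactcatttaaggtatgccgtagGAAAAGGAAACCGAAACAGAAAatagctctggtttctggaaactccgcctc
Oas1a (chr5:120907526-120907605, minus strand): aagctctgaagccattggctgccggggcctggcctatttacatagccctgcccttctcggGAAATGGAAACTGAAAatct
Gbp3 (chr3:142559964-142560043, plus strand): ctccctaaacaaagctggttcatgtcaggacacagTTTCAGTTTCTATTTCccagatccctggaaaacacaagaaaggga
Bst2 (chr8:71537555-71537634, minus strand): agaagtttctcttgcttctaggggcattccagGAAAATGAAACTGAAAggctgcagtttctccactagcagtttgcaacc
Rsad2 (chr12:26456528-26456607, minus strand): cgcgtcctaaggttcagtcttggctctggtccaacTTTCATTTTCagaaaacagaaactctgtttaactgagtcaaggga
The first 5 held overlapping or repeated matches and Rsad2 held 1. Isg15, named with its values in view, gave -1.40 ± 0.19, adjusted p = 8.53e-05.

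Of 13 oncofetal and imprinted growth genes 9 were lower and 0 higher (median -0.98), against 1.97% of all genes called lower. Grb10, an imprinted adaptor that restrains growth factor receptors, read in fetal organoids 5.19, 4.95, 5.29 and 4.85 at day 30, against 7.26, 7.50, 7.13 and 6.60 at day 3, and in adult organoids 4.61, 4.83, 4.96 and 4.72 at day 30, against 4.97, 4.84, 4.81 and 4.74 at day 3. Fetal day 3 was above every other array (-1.99 ± 0.19, adjusted p = 1e-06). Ndn, an imprinted growth suppressor, gave -2.36 ± 0.33, adjusted p = 0.000174. Peg3, an imprinted zinc finger gene, gave -1.88 ± 0.33, adjusted p = 0.00167, and Igf2, the fetal growth factor, gave -1.49 ± 0.18, adjusted p = 2.27e-05. Igf2bp3 differed in kind. This oncofetal RNA-binding protein read in fetal organoids 8.10, 7.95, 8.29 and 7.87 at day 30, against 7.96, 8.21, 8.28 and 8.43 at day 3, and in adult organoids 6.68, 6.02, 6.55 and 5.51 at day 30, against 4.88, 5.18, 4.88 and 5.60 at day 3. Both fetal groups were above both adult groups, and adult day 30 was above adult day 3 in all but 1 array. Its fetal change was -0.17 and its adult change 1.06 (adjusted p = 0.0487), and the difference was -1.22 ± 0.27, adjusted p = 0.0113. In a limma fit of the 16 organoid arrays alone 0 genes were called higher in adult organoids at day 30, with 1180 at an unadjusted p under 0.05, and the adult change of Igf2bp3 had an adjusted p of 0.204. Without fetal day 3 replicates 2 and 3, 7 of the 13 were lower and Igf2bp3 gave -1.20 (adjusted p = 0.0563).

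The list of fetal spheroid and regenerative epithelium genes had 3 lower genes of 16, against 1.97% of all genes called lower. The median fetal change was -1.87, with 14 genes called lower in fetal organoids alone, where 15.5% of all genes were called in either direction. The median adult change was -0.72, with 0 called, against 0.0489% of all genes. With so few adult calls, a count of 0 does not show that the list stayed level in adult organoids. List means ran from 5.59 to 7.05 on adult day 3 arrays, highest on replicate 1, against 5.44 to 5.75 on adult day 30 arrays. The median difference was -0.66, and -0.95 without adult day 3 replicate 1. Ly6d, a surface protein, read in fetal organoids 5.12, 4.86, 6.56 and 6.84 at day 30, against 10.15, 10.16, 10.42 and 10.83 at day 3, and in adult organoids 5.47, 5.37, 5.10 and 5.34 at day 30, against 6.63, 5.59, 6.31 and 5.42 at day 3. No other array reached the level of fetal day 3, and fetal day 30 arrays split into a lower and a higher pair (-3.88 ± 0.47, adjusted p = 3.53e-05). Lgals1, a galectin, read in fetal organoids 5.97, 4.97, 6.29 and 4.94 at day 30, against 9.26, 10.29, 10.41 and 9.43 at day 3, and in adult organoids 6.10, 5.71, 5.73 and 5.15 at day 30, against 7.69, 7.26, 6.62 and 5.79 at day 3. The highest arrays were those of fetal day 3, and adult day 3 lay above adult day 30 in part (-3.13 ± 0.52, adjusted p = 0.000907, adult change -1.17). Ccn1, a matrix protein gene and YAP target, gave -1.41 ± 0.29, adjusted p = 0.00547. Lgals1 is also made by mesenchyme, whose markers are given below, and their part in its difference was not tested. Nrg1, an EGF family ligand, gave -1.48 ± 0.15, adjusted p = 3.9e-06, but -0.66 with the mean of its probe clusters. Lrig3, an EGF receptor regulator, gave 1.17 ± 0.16, adjusted p = 0.000101.

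Of the 15 largest negative differences, several belonged to none of the lists. Slc43a3, a purine transporter, read in fetal organoids 4.66, 4.71, 4.77 and 4.56 at day 30, against 8.60, 9.17, 8.99 and 9.64 at day 3, and in adult organoids 4.90, 4.69, 4.83 and 4.83 at day 30, against 6.62, 4.81, 5.14 and 5.07 at day 3. Fetal day 3 was above every other array, and adult day 3 replicate 1 was above the other adult arrays (-3.83 ± 0.35, adjusted p = 8.99e-07). Mup20, a pheromone-binding protein, read in fetal organoids 5.07, 3.51, 4.93 and 4.53 at day 30, against 9.66, 8.69, 8.53 and 9.65 at day 3, and in adult organoids 3.77, 5.59, 4.21 and 3.23 at day 30, against 5.67, 5.02, 5.73 and 3.72 at day 3, with fetal day 3 above every other array (-3.79 ± 0.63, adjusted p = 0.000844). Hao2, an oxidase of hydroxy acids, gave -3.06 ± 0.20, adjusted p = 3.56e-09. Meltf, an iron-binding surface protein, gave -2.82 ± 0.25, adjusted p = 4.74e-07, and Npl, which breaks down sialic acid, gave -2.73 ± 0.45, adjusted p = 0.000801. Slc6a14, an amino acid transporter, gave -2.99 ± 0.59, adjusted p = 0.0045. Clec7a, a receptor for fungal glucans, gave -2.83 ± 0.42, adjusted p = 0.000271. Ly6g gave -2.87 and Bcl2a1a gave -2.87. Mup20, Ly6g, Bcl2a1a and, among the interferon genes, Oas1a have near-identical copies that may share signal.

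Lipid and energy genes were split, set against 1.02% of all genes called higher and 1.97% called lower. Of 21 fatty acid uptake and chylomicron genes 3 were higher and 1 lower. Abcg8 (1.41) and Abcg5 (1.18), partners in the sterol exporter, and Dgat1, the triglyceride-forming enzyme (1.10), were higher, and Plin2, the coat of lipid droplets, was lower (-1.16). Of 13 fatty acid oxidation genes, Cpt1a (-0.77) and Slc25a20 (-0.81), which bring fatty acids into mitochondria, were lower. Abcg8, Abcg5, Plin2 and Slc25a20 were lost without fetal day 3 replicates 2 and 3, where Abcg5 gave 0.74 and Slc25a20 gave -0.75 (adjusted p = 0.0728). Abcg8 was lost in 11 of 25 other fits and Abcg5 in 13. Of 16 cholesterol synthesis and 7 bile acid genes limma called 0, with 2 and 4 at an unadjusted p under 0.05. Of 9 glucocorticoid-responsive genes 1 was higher, Nr3c1, the receptor itself (0.70 ± 0.13, adjusted p = 0.00356), with a list median of 0.01 and 4 negative differences.

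**Figure D3:**
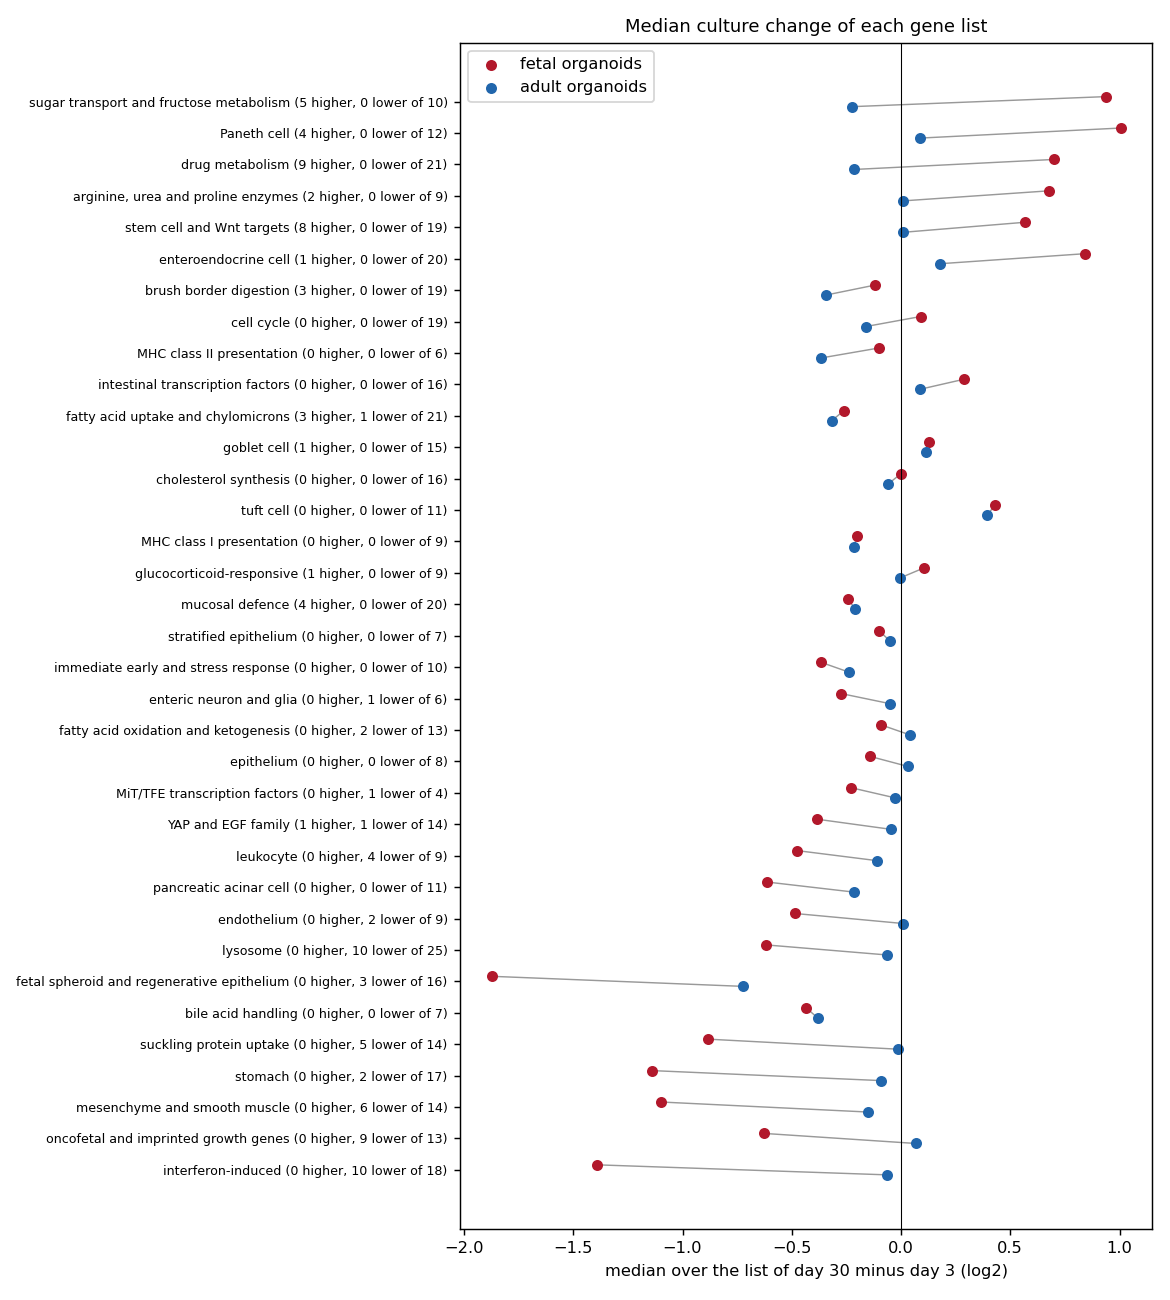
Median change, day 30 minus day 3 (x axis, log2), over each of 35 gene lists, in fetal organoids (red, upper point) and adult organoids (blue, lower point), with the number of genes called higher or lower for the difference of the measured genes. The fetal median lies above the adult one for the sugar transport list (0.94 against -0.22) and below it for the interferon-induced (-1.39 against -0.06), fetal spheroid (-1.87 against -0.72), stomach (-1.14 against -0.09) and mesenchymal (-1.10 against -0.15) lists.

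Markers of other cell types moved with several of these groups. Set against the counts here, 1.97% of all genes were called lower. Stomach genes gave 2 lower of 17 (median -0.94), with 0 to 5 lower when 1 array was left out, and 1 lower with a median of -0.24 without fetal day 3 replicates 2 and 3. Gkn2, a gastric secreted protein, read in fetal organoids 3.68, 3.49, 4.46 and 3.47 at day 30, against 6.63, 10.50, 10.38 and 4.45 at day 3, and in adult organoids 3.66, 3.55, 3.70 and 3.45 at day 30, against 3.52, 3.69, 3.59 and 3.65 at day 3. The fetal day 3 arrays ran from 4.45 to 10.50, with replicates 2 and 3 highest, and the difference was -4.20 ± 1.11, adjusted p = 0.0377, but -1.74 without those arrays and lost in 16 of 24 other fits. Cldn18, a stomach tight junction gene, gave -3.35 ± 0.86, adjusted p = 0.0327, but -1.47 (adjusted p = 0.0563) without those arrays, and the mucin-like gene Mucl3 gave -3.45 ± 0.95, adjusted p = 0.0498, but -1.53 (adjusted p = 0.238). Of 11 pancreatic acinar genes limma called 0, with 7 at an unadjusted p under 0.05 and list means of 5.08 to 5.36 on fetal day 30, against 5.10 to 7.46 on fetal day 3 arrays. Mesenchymal genes were lower for 6 of 14 (median -0.94). Sparc, a matrix protein, read in fetal organoids 6.70, 6.56, 7.07 and 6.65 at day 30, against 8.38, 8.90, 8.88 and 8.51 at day 3, and in adult organoids 6.58, 6.81, 6.85 and 6.85 at day 30, against 8.18, 6.70, 6.78 and 6.70 at day 3. The highest arrays were again those of fetal day 3, and adult day 3 replicate 1 lay close to it (-1.60 ± 0.32, adjusted p = 0.00504). Col1a1, fibrillar collagen, gave -1.20 ± 0.28, adjusted p = 0.0161. Without fetal day 3 replicates 2 and 3, 2 of the 14 were lower (median -0.63), and neither Sparc (-1.38, adjusted p = 0.0529) nor Col1a1 (-0.70, adjusted p = 0.0947) was called. Without adult day 3 replicate 1, 10 were lower. Endothelial genes were lower for 2 of 9 (median -0.52) and leukocyte genes for 4 of 9 (median -0.37). The 4 included Csf1r, the macrophage growth factor receptor (-1.10), and Itgam, a myeloid integrin (-1.39). Of the 9 leukocyte genes, 3 had a positive difference, up to 0.92, and 2 lay below the negative controls in all 4 organoid groups. The counts of lower endothelial and leukocyte genes were 1 and 2 without fetal day 3 replicates 2 and 3, where Itgam gave -0.81 (adjusted p = 0.0948). In bulk RNA, fewer cells of a type and less RNA per cell cannot be told apart. The part of these cells in the other differences was not tested. Of the 100 named genes that were called, 32 lost their call without fetal day 3 replicates 2 and 3.

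**Figure D4:**
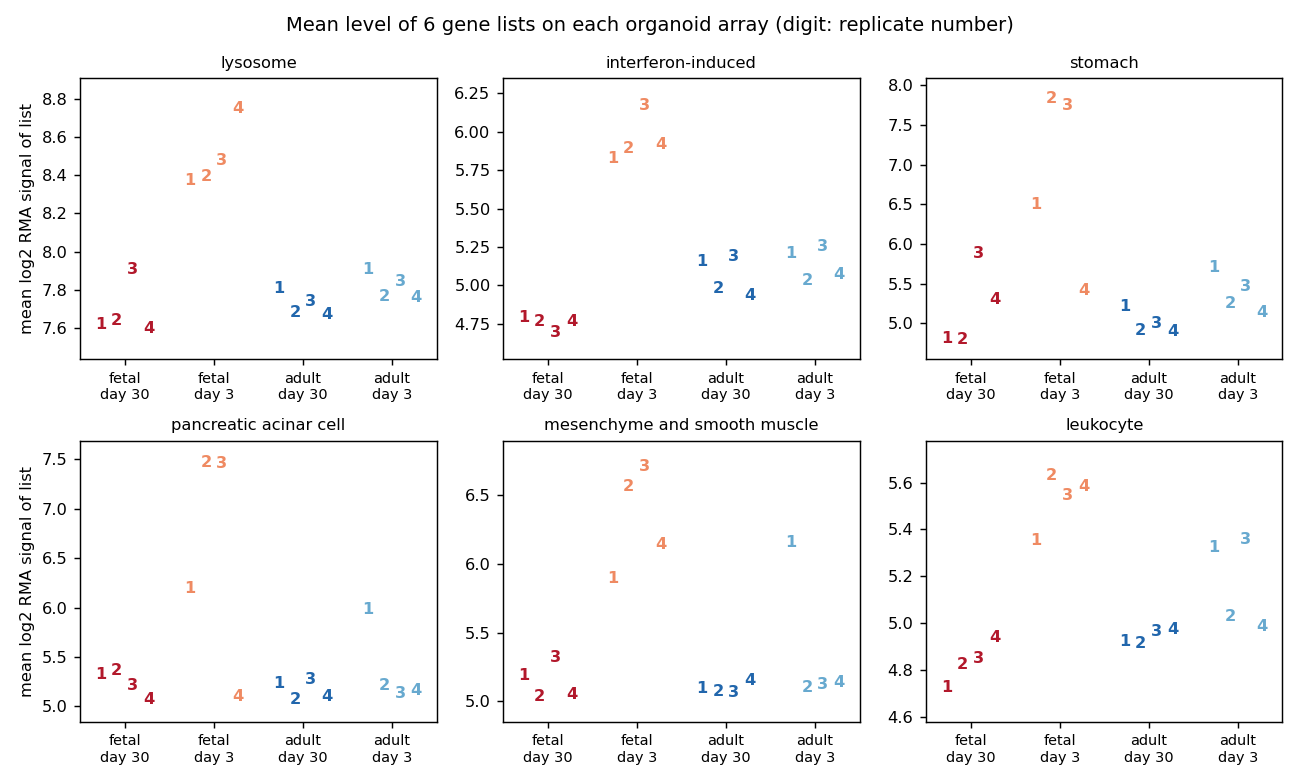
Mean log2 signal (y axis) of 6 gene lists on each organoid array, with fetal day 30, fetal day 3, adult day 30 and adult day 3 groups on the x axis and the replicate number as the symbol. Fetal day 3 replicates 2 and 3 are high in the stomach and pancreatic acinar lists and adult day 3 replicate 1 in the mesenchymal list, while the lysosome and interferon lists are high on all fetal day 3 arrays.

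The difference can also be read as the gap between fetal and adult organoids at day 30 minus the gap at day 3, from the same arrays, so a called gene must have a gap that changed. For the 313 higher genes the median size of the gap was 0.19 at day 30, against 1.07 at day 3, and for the 605 lower genes 0.13, against 0.90. The gap was smaller at day 30 for 301 and 557 of them. A gap over 1 was left at day 30 for 7 and 17 genes, against 164 and 256 at day 3. Over all genes, fetal and adult organoids differed at day 30 in 8.97%, against 24.6% at day 3.

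**Figure D5:**
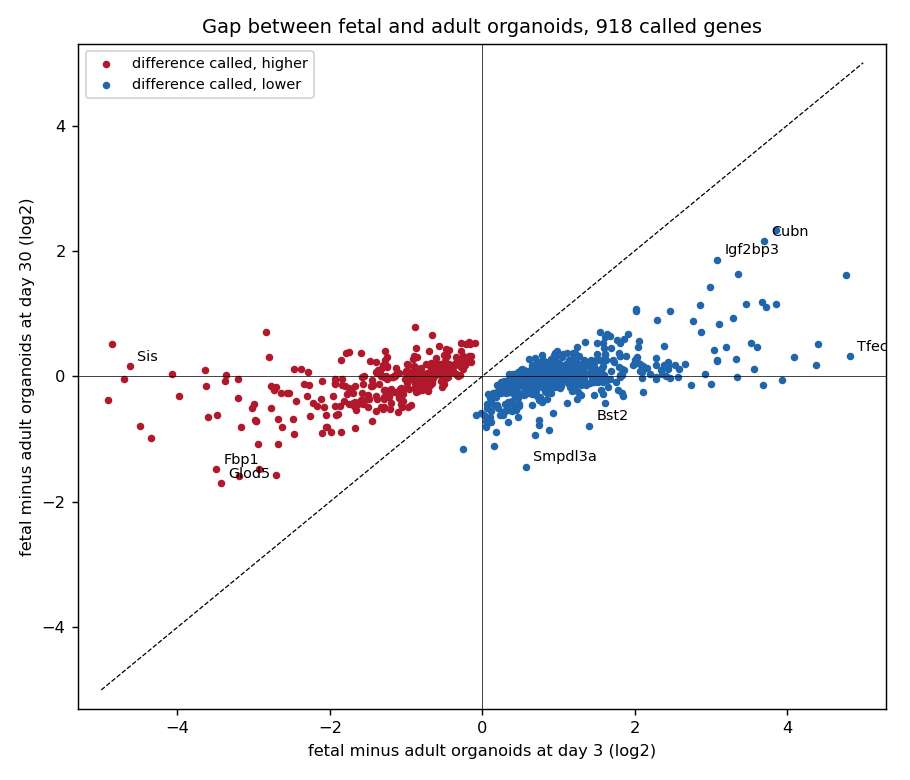
Gap between fetal and adult organoids (log2, fetal minus adult) at day 30 (y axis) and at day 3 (x axis) for the 918 called genes, in red where the difference was higher and in blue where it was lower, with equal gaps on the dashed line. Most points lie near a day 30 gap of 0, and Cubn, Igf2bp3, Fbp1, Glod5 and Smpdl3a are among those that stay apart from it.

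Whole intestine of adult and P0 mice gave a readout on other arrays, which shared the estimate of each gene's spread with the organoid arrays. In the same fit, 27.1% of all genes differed between adult and P0 tissue, 15% higher and 12.2% lower in the adult. Of the 313 genes called higher for the organoid difference, 199 were also higher in adult tissue (63.6% of the 313 and 4.33% of the tissue list) and 12 lower. Of the 605 genes called lower, 357 were lower in adult tissue (59.0% of the 605 and 9.56% of the tissue list) and 65 higher. The shared counts were 116 higher and 231 lower without fetal day 3 replicates 2 and 3, and over the fits that held the tissue arrays they ran from 116 to 288 and from 231 to 522. The tissue median was 0.56 for the higher genes and -0.51 for the lower genes, against 0.08 over all genes. Tissue holds muscle, vessels and immune cells besides epithelium. Sis was higher in adult tissue by 6.81 and Lyz1 by 6.28, and Tfec was lower, at -4.90. For Tfec, adult tissue lay below its negative controls (3.86, against 4.40), so the size of that change is not resolved. Fbp1 went against its organoid difference, at -2.52 in tissue and 2.01 in organoids. Ly6d likewise gave 1.14 in tissue and -3.88 in organoids. Gkn2 lay below the negative controls in adult tissue (3.46, against 4.40) and in P0 tissue (3.33, against 4.36), so its tissue change is not resolved.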

How the data were processed

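RNA of 24 arrays was measured, and the authors deposited log2 signals. Affymetrix Expression Console and RMA are the tools named, per the submitters' processing notes. RMA corrects background, quantile normalizes and summarises probes. Tool versions, the build and the set of arrays normalized jointly were not given in the sources read here. Per the labels' protocols, RNA came from Trizol extraction and 1 µg was labelled with biotin.

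Of 72688 probe sets, 65956 were transcript clusters, 31261 of which named 1 gene in the platform annotation (1135 symbols updated with RefSeq). The cluster with the highest mean was kept where a gene had several (441 genes), leaving 30705 genes. The 1489 clusters naming several genes and 33206 without a symbol were not used here. One limma 3.58.1 model (R 4.3.3) of 6 group means over 24 arrays gave every contrast, with 18 residual and 4.25 prior degrees of freedom, two-sided, Benjamini-Hochberg adjusted over all genes and called at an adjusted p under 0.05. The script was tested on simulated data. Values are log2 differences ± SE (n = 4 arrays per group). Precision is limited by the number of arrays.

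Named genes were a panel of 12, the 15 largest called differences on each side (without provisional or joined names, or genes below the negative controls in all 4 organoid groups), and up to 6 called genes of each of 37 lists with any that went against their list. Members, lists and motifs were chosen with earlier results of these data known. Same-numbered replicates showed no common deviation (r from -0.31 to 0.25 over 24 pairs, over 0.1 in 5), so no block was used. Those pairs include fetal set against adult arrays. Between days, r was 0.25, -0.06, 0.16 and 0.04 for fetal replicates 1 to 4. For adult replicates 1 to 4 it was -0.02, -0.29, -0.19 and 0.18. Pairing within an origin is therefore not excluded. Alternatives were the mean of clusters, a filter on dim genes, a trended and robust prior, organoid arrays alone, array weights, centring, a repeated quantile normalization, replicate number as a block, a threshold of 0.01, and arrays left out. Python 3.11.15 with pandas 2.3.3 and matplotlib 3.10.9 made the tables and figures.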

Additional observations from a re-analysis of the deposited data

Results flagged for a closer look

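Of the 12 panel genes, 5 had culture changes that differed between fetal and adult organoids by limma's test of the difference itself, against 2.99% of all genes. They were Sis (4.78), Treh (3.30), Arg2 (3.70), Fcgrt (-1.43) and Lyz1 (1.80). Fcgrt lost its call in 13 of 25 other fits and Lyz1 in 10.

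Of 248 groups of 4 arrays examined, 15 (6.05%) held an array far from the other 3 of its group by Dixon's ratio, and chance gives about 1 in 20. Fetal day 3 replicate 4 was high for Tfec (8.98, against 8.10 to 8.20 on the others), Cubn (8.26, against 7.43 to 7.45), Mcoln3 (7.75, against 5.76 to 6.04) and Lgmn (10.13, against 9.23 to 9.35). Adult day 3 replicate 1 was high for Sparc (8.18, against 6.70 to 6.78), Uty (3.69, against 3.57 to 3.58), the mean of the mesenchymal list (6.15, against 5.10 to 5.14) and the mean of the pancreatic acinar list (5.98, against 5.13 to 5.21).

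Adult day 30 replicate 3 was high for Ifit1 (5.44, against 3.33 to 3.45) and low for Pigr (11.22, against 11.47 to 11.51). Adult day 30 replicate 1 was low for Cyp3a11 (6.93, against 8.23 to 8.35) and Sparc (6.58, against 6.81 to 6.85). Fetal day 30 replicate 1 was high for Pigr (11.51, against 11.21 to 11.26) and low for the area under the curve of positive against negative controls (0.88, against 0.90 on the others). The median of adult day 3 replicate 2 was low (4.26, against 4.31 to 4.32).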

How the results depend on the processing

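Of the 100 named genes that were called, 66 kept their call at an adjusted p under 0.05 in every other fit that held them. These were 25 fits, but 24 for Slc6a14. Of the named genes 0 turned direction, and 65 of the 66 also passed 0.01. The call was lost by 32 without fetal day 3 replicates 2 and 3 and by 19 in the fit of organoid arrays alone, which have fewer arrays. The difference was higher for 480 and lower for 921 genes with array weights, 177 and 386 without fetal day 3 replicates 2 and 3, and 137 and 285 at an adjusted p under 0.01. With 1 array left out it was higher for 219 (without adult day 3 replicate 4) to 483 genes (without fetal day 3 replicate 4), and lower for 421 to 834. The replicate block gave 289 higher and 573 lower, 814 of them shared with the fit without it, and 5 of the 100 named calls were lost. The fetal change was higher for 3489 genes with centred arrays, 1266 without fetal day 3 replicates 2 and 3, and 1113 (1610 lower) at an adjusted p under 0.01. The adult change, 8 higher and 7 lower, was 203 and 169 with array weights, 2 and 4 with centring, and 0 and 3 with a replicate block, a second quantile normalization, organoid arrays alone, an adjusted p under 0.01 or without fetal day 3 replicates 2 and 3. With 1 array left out it ran over 0 to 114 and 3 to 90, highest without adult day 30 replicate 3. The causes were not tested. Genes near the negative controls have no resolved order.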
